A study of Mus musculus with 6 samples.

Results

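A set of 9 genes of the signaling branch that joins Src-family kinases, the kinase Syk and the adaptor CARD9 were followed in myeloid cells sorted from the mouse pancreas: Syk, Card9, Bcl10, Malt1, Prkcd, Plcg2, Fgr, Lyn and Src. They were taken as the rows of the raw count table whose Ensembl identifier maps to these symbols in the GENCODE vM21 annotation. All 9 were found among the 21780 genes of the table, and all 9 were among the 14429 genes tested. The libraries were made from live CD45+CD11b+ cells of the pancreas of C57BL/6 mice, males and females of 6 to 8 weeks, that had received a single intraperitoneal injection 7 days before. WGP mice received 1 mg of whole β-glucan particles of yeast in sterile PBS, PBS mice the sterile PBS alone, and no genetic alteration is given for either group. Each group had 3 libraries, described by the study as independent animals. The comparison asks how transcripts of this branch stood 7 days after the particle, compared with PBS.

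As background, C-type lectin receptors such as Dectin-1, which binds β-glucan, and receptors paired with the adaptors FcRγ and DAP12 are phosphorylated by Src-family kinases on tyrosine motifs to which Syk binds. Syk then acts through phospholipase C gamma 2 and protein kinase C delta, and the latter phosphorylates CARD9 so that it assembles with BCL10 and the paracaspase MALT1 and opens the way to NF-κB. In myeloid cells this route drives cytokine production after contact with fungi.

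The libraries held between 35334645 and 43341834 counts. CD11b (Itgam) was present in every library, at 189 to 254 CPM in PBS and 379 to 418 CPM in WGP, where CPM are counts scaled to the size of each library, after TMM normalization. Of 7 myeloid lineage markers 4 rose, and their sum was 9653, 15055 and 15688 CPM in PBS 1, 2 and 3 and 22472 to 23693 CPM in WGP. Of 11 markers of resident macrophages 8 fell, with a summed level of 9820 to 20326 CPM in PBS and 4082 to 6259 CPM in WGP, and of 8 markers of Ly6C-high monocytes 4 rose and 1 fell. Of 6 B cell markers 5 fell, and their sum was 2436 CPM in PBS 1, 625 CPM in PBS 2, 366 CPM in PBS 3 and 87.3 to 173 CPM in WGP, with none at 0 in all libraries. Neutrophil markers summed to 5006, 3009 and 2106 CPM in PBS 1, 2 and 3 and 2385 to 2476 CPM in WGP, and NK cell markers to 195, 97.1 and 46.2 CPM and 38.5 to 52.8 CPM. Of 10 neutrophil markers 2 rose (Csf3r and Cxcr2) and 1 fell (Mmp9), and of 6 NK cell markers 1 fell (Gzma). WGP 2 stood apart by stromal and endothelial markers, at 1434 CPM against 67.2 to 263 CPM in the others. All 6 acinar markers tested fell, with a sum of 1076 to 4380 CPM in PBS and 313 to 519 CPM in WGP. Of 4 platelet markers tested Pf4 alone fell, and the sum of the list was 265 to 454 CPM in PBS and 15.5 to 21.9 CPM in WGP, with Gp1bb and Gp9 at 0. Conventional dendritic cell markers summed to 148 to 194 CPM in PBS and 67.5 to 130 CPM in WGP, with 1 of 6 past the test (Cd209a, lower). Mast cell and basophil markers summed to 11.6 to 29.5 CPM in PBS and 32.9 to 47.7 CPM in WGP, with Cpa3 and Mcpt4 at 0. Of the 4 tested Kit alone was higher (log2 fold change 1.72) and alone passed the test, while 3 were lower. The part of these cells in the results was not tested. Y-linked transcripts were counted only in PBS 2 (8972 counts) and PBS 3 (10063 counts), apart from 1 count in WGP 3, so these transcripts split the PBS group and were not balanced between the groups. In a bulk library fewer cells of a type and less RNA per cell cannot be told apart.

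The 3 members that passed both thresholds of the test, Fgr, Prkcd and Src, were all higher in WGP. Genes were tested with edgeR's quasi-likelihood test, and a call needed an adjusted p (Benjamini-Hochberg, over all genes tested) of 0.05 or less and a log2 fold change of 1 or more in size. By this rule 9.49% of all genes tested were called, and 4.53% were called higher. At the adjusted p alone 6 of 9 members passed (Fgr, Prkcd, Card9, Lyn, Plcg2 and Src), all higher in WGP, where 14.4% of all genes passed, 7.54% as higher and 6.81% as lower. The values of the groups did not overlap for 7 of 9 members, against 32.0% of all genes tested. With 1 library left out in turn, from 2 (without PBS 2, WGP 1 or WGP 3) to 7 (without PBS 1) members passed the adjusted p. With PBS 1 and WGP 2 both left out 3 members were called (Fgr, Prkcd and Malt1) and 6 passed the adjusted p. A term for Y-linked counts takes up PBS 2 and PBS 3, so that its fold change is that of WGP over PBS 1 alone, a single library assumed to vary like the others. In that fit Fgr and Prkcd were called and no other member passed. The median log2 fold change was 0.59 over the members and -0.05 over all genes tested. The members were chosen with earlier results of these data known, so setting them beside all genes does not test the set.

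**Figure D1:**
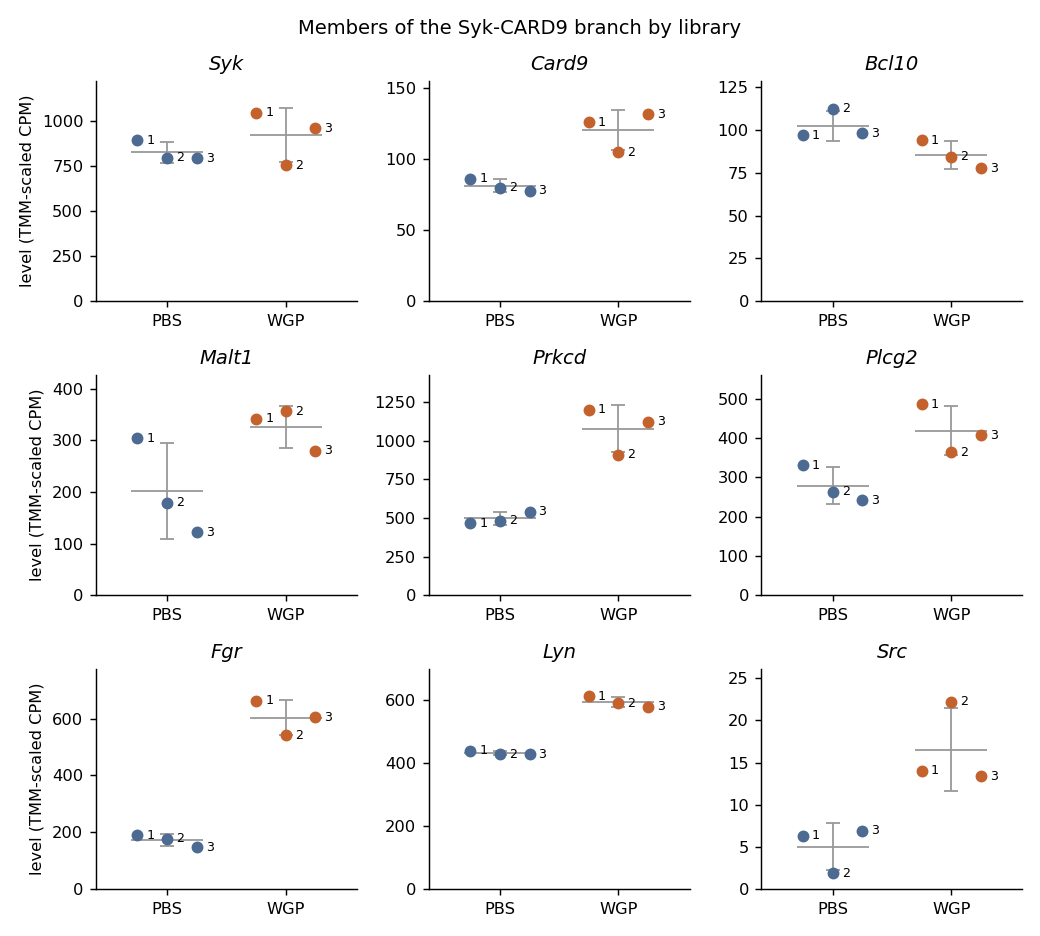
Level of each member in each library (TMM-scaled CPM, vertical axis from 0) in PBS (blue) and WGP (orange). Points are libraries numbered by replicate, and grey lines are the mean and SD of 3 libraries. The groups are apart for Fgr and Prkcd by a wide margin, while those of Syk and Malt1 overlap.

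The promoters of the called members, which were all higher in WGP, are printed here with that of Card9 beside them. They are the 250 bases before the start of transcription in RefSeq on GRCm38.p6, written 5′ to 3′ on the strand of the gene. RefSeq windows were found for 7 of 9 members, not for Lyn and Malt1. For Prkcd the first of 2 windows is given, and which start these cells used was not measured. Capitals mark the letters GGAAGT on either strand, the core bound by ETS factors such as PU.1, the lineage factor of myeloid cells.

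Fgr, chr4:132973845-132974094, plus strand: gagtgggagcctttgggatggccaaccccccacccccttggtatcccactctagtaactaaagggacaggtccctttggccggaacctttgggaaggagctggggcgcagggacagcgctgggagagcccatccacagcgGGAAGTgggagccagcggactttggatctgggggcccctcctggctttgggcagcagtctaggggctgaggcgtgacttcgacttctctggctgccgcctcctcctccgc
Prkcd, chr14:30626209-30626458, minus strand: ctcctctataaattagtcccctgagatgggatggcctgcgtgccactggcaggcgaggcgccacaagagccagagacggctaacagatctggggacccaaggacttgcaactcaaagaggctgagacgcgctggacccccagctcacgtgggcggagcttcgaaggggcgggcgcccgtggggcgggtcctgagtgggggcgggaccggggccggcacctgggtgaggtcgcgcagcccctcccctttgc
Src, chr2:157424043-157424292, plus strand: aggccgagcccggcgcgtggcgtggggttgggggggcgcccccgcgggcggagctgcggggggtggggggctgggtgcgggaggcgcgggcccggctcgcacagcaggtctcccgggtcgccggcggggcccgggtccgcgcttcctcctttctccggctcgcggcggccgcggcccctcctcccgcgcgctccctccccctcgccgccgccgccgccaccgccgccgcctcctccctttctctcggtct
Card9, chr2:26360910-26361159, minus strand: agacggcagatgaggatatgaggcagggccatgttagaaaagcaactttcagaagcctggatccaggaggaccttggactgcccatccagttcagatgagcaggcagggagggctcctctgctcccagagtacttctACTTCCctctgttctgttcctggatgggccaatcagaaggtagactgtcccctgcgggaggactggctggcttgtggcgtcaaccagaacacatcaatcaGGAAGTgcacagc

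The window of Src was the richest in G and C of these 4, at 82.8% with 40 CG pairs. Those of Prkcd and Fgr held 67.6% and 64.4% G and C with 18 and 9 CG pairs, and that of Card9 55.2% with 3. Over 32851 promoter windows the medians were 52.4% and 6 CG pairs. The ETS core, a motif chosen after the windows were seen, lay once before the start of Fgr and at 2 places before that of Card9, and it also lay at or after the start of Syk, Bcl10 and Prkcd. In windows of 300 bases (250 before and 50 after the start) it was found in 5 of 7 members, of which Syk and Prkcd have 2 windows each, and in 23.8% of all windows. Searched on both strands, the letters GGNNTTTCC of NF-κB were found in 1 member, Syk, across the start of its second window, against 5.82% of all windows. The longer PU.1 site GAGGAAGT, TTCNNNGAA for STAT factors, TGANTCA for AP-1 and AAANNGAAA for the interferon response were found in no window of the 7 members, against 3.20%, 8.30%, 7.81% and 10.6% of all windows. Such matches describe letters only.

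All 3 members that are Src-family kinases rose. Fgr, a kinase of neutrophils, monocytes and macrophages, lies on chromosome 4 (132974095 to 133001910, GRCm38). It was at 189, 177 and 147 CPM in PBS 1, 2 and 3 and at 663, 541 and 606 CPM in WGP 1, 2 and 3. Every WGP library was far above every PBS library. The rise was 3.52-fold (log2 fold change 1.82 ± 0.16 SE, 95% interval 1.46 to 2.17, edgeR adjusted p = 5.44e-05).

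Src, the founding member of the family and a minor transcript here, lies on chromosome 2 (157418444 to 157471862). It had 243, 73 and 282 counts in PBS 1, 2 and 3, or 6.32, 1.87 and 6.89 CPM, and 518, 922 and 547 counts in WGP 1, 2 and 3, or 14.1, 22.2 and 13.4 CPM. The groups did not overlap, but PBS 2 was low and WGP 2, the library with stromal markers, was high. The log2 fold change was 1.72 ± 0.50 SE (95% interval 0.60 to 2.83, edgeR adjusted p = 0.0455). In each library the number of genes at a given low count had a peak well above single reads, between 18 and 39 counts. In PBS 2 this peak lay at 29, so the 73 counts of Src there were 2.52 times the peak, against 6.23 to 28.8 times in the other libraries. The call was lost in 10 of 18 alternatives, with adjusted p up to 0.306. Without PBS 2, WGP 1, WGP 2 or WGP 3 in turn the edgeR adjusted p was 0.0768, 0.0864, 0.128 and 0.0757, and the log2 fold change was lowest without PBS 2 (1.32).

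Lyn, which both starts and restrains receptor signaling, was steadier. It lies on chromosome 4 (3678115 to 3813122). Its level was 437, 426 and 426 CPM in PBS and 611, 589 and 577 CPM in WGP. The spread within each group was small (SD 6.42 CPM in PBS and 17.2 CPM in WGP, n = 3) and the groups did not overlap. Lyn rose by a log2 fold change of 0.46 ± 0.13 SE (edgeR adjusted p = 0.0397), under the threshold for a call. With any library but PBS 1 left out the edgeR adjusted p was between 0.0751 and 0.145. Lyn shared 248 exon bases (6.09% of its exon length) with Gm26857 on the opposite strand, and the strand setting of the counting is not given in the sources used here.

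The relatives of these 3 kinases did not move alike. Blk, the B lymphoid kinase, was called lower (log2 fold change -3.17 ± 0.67 SE, edgeR adjusted p = 0.00939). It was at 142 CPM in PBS 1, 33.3 CPM in PBS 2 and 16.1 CPM in PBS 3, and at 6.06 to 7.98 CPM in WGP. That is the order in which PBS libraries held B cell markers, and limma-voom did not call it (adjusted p = 0.135). The part of B cells in this value was not tested. Fyn, which is widely expressed, was at 49.4 to 67.5 CPM in PBS and 70.9 to 94.3 CPM in WGP (edgeR adjusted p = 0.160). Lck, the T cell kinase, had overlapping groups (log2 fold change -1.35, edgeR adjusted p = 0.246), and Yes1 did not exceed 2.73 CPM in any library. Of 7 kinases of the family given here, the members included, 3 rose and 1 fell.

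To compare the kinases with each other, levels were divided by exon length (CPM per kb) and expressed as a share of the summed level of these 7 kinases, which are not the whole family. Shares do not depend on how libraries are scaled. The share of Fgr was 21.1%, 24.9% and 23.3% in PBS and 49.5%, 44.0% and 48.9% in WGP. The share of Lyn was 46.2%, 57.0% and 64.0% in PBS and 43.3%, 45.5% and 44.2% in WGP, so Lyn took a smaller share although its level rose. On this scale Lyn stood above Fgr in every PBS library (mean 106 against 44.3 CPM per kb), while in WGP they were close (145 ± 4.23 and 156 ± 15.8 CPM per kb, SD, n = 3). Blk had 11.0% ± 10.2 in PBS and 0.803% ± 0.117 in WGP (SD, n = 3). For each of these 3 kinases the libraries of the groups did not overlap, and the exact two-sided permutation test gave p = 0.1, the smallest that 3 libraries against 3 allow (Benjamini-Hochberg 0.143 over 20 shares). Src held 0.607% ± 0.366 in PBS and 1.16% ± 0.381 in WGP (SD, n = 3; exact permutation p = 0.3).

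**Figure D2:**
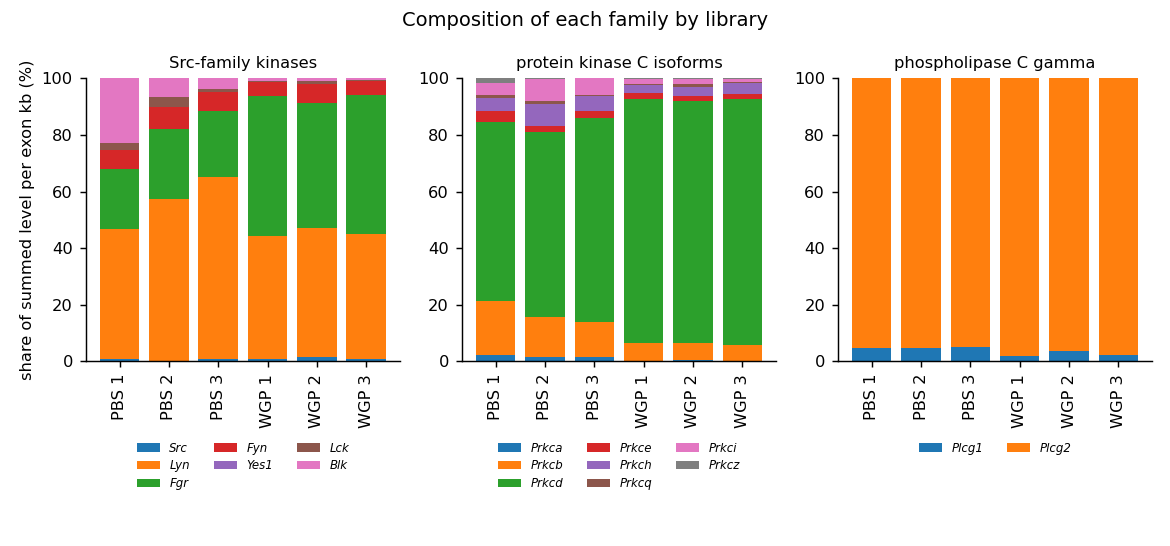
Share of each gene in the summed level of the genes of its family given here, in percent of CPM per kb of exon, stacked for each of 6 libraries. The panels are 7 Src-family kinases, 8 protein kinase C isoforms and phospholipase C gamma. Fgr (green, left panel), Prkcd (green, middle panel) and Plcg2 (orange, right panel) take larger shares in every WGP library than in any PBS library.

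The ratios between kinases were computed within each library. Fgr over Lyn was 0.433, 0.414 and 0.345 in PBS and 1.08, 0.918 and 1.05 in WGP. That is a 2.56-fold change without overlap (exact permutation p = 0.1, Benjamini-Hochberg 0.129 over 9 ratios). Src over Lyn was 0.0145, 0.00439 and 0.0162 in PBS and 0.0230, 0.0377 and 0.0232 in WGP, a 2.70-fold change (exact permutation p = 0.1). PBS 2 was low, and the log2 change was 0.83 without it against 1.43 with all libraries. Fgr over Src ranged from 21.4 to 94.3 in PBS and from 24.3 to 47.1 in WGP, and no difference could be shown (exact permutation p = 1).

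Syk, the kinase on which these receptors converge, lies on chromosome 13 (52583173 to 52648792). It was abundant and not changed past the test. Its level was 897, 798 and 794 CPM in PBS and 1049, 758 and 962 CPM in WGP. WGP 2 was the lowest of the 6 libraries and WGP 1 the highest, so the groups overlapped. The log2 fold change was 0.15 ± 0.16 SE with a 95% interval from -0.21 to 0.51, and the edgeR adjusted p was 0.598. The interval holds no rise as large as those of Prkcd or Fgr. In all 18 alternatives the adjusted p of Syk stayed above 0.05, at 0.0632 to 0.956. With 1 library left out its log2 fold change ranged from 0.05 (without WGP 1) to 0.28 (without WGP 2). With PBS 1 and WGP 2 both left out it was 0.33.

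Of 6 kinases of the Syk and Tec families none rose and 1 fell. Tec, a kinase that acts on phospholipase C gamma, was at 69.2 to 74.5 CPM in PBS and 39.5 to 41.9 CPM in WGP (log2 fold change -0.83 ± 0.15 SE, edgeR adjusted p = 0.00475). Btk, which serves B cells and myeloid cells, was at 93.4 to 106 CPM in PBS and 92.8 to 96.1 CPM in WGP (log2 fold change -0.08, edgeR adjusted p = 0.761). Zap70, the relative of Syk in T cells, Txk and Bmx did not exceed 7.23 CPM in any library and did not pass (edgeR adjusted p = 0.447 to 0.904).

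Below Syk both protein kinase C delta and phospholipase C gamma 2 rose. Prkcd, the kinase that phosphorylates CARD9, lies on chromosome 14 (30595354 to 30626210). It was at 466, 484 and 541 CPM in PBS and at 1203, 910 and 1125 CPM in WGP. The lowest WGP library was well above the highest PBS library. Prkcd rose 2.17-fold (log2 fold change 1.12 ± 0.16 SE, 95% interval 0.77 to 1.47, edgeR adjusted p = 0.000999), and it was called in all 18 alternatives, as Fgr was.

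The other isoforms of protein kinase C showed no such rise. Of 8 isoforms given here Prkcd alone rose and 2 fell. With 1 library left out Prkcd alone rose each time, and from 1 (without PBS 2 or WGP 3) to 3 (without PBS 3) fell. Prkca was at 19.0 to 27.8 CPM in PBS and 3.25 to 7.11 CPM in WGP (log2 fold change -2.06 ± 0.37 SE, edgeR adjusted p = 0.00402). Prkci, an atypical isoform tied to cell polarity, was called lower (log2 fold change -1.09 ± 0.25 SE, edgeR adjusted p = 0.0163), a call lost without PBS 2, without WGP 3 and with a term for Y-linked counts (WGP against PBS 1 alone). Prkcb, an isoform of B cells and myeloid cells, was at 193, 144 and 126 CPM in PBS and 118, 90.5 and 101 CPM in WGP (edgeR adjusted p = 0.0689). It passed as lower in some alternatives, among them library totals, DESeq2 and the fit without PBS 3. Prkce, Prkch, Prkcq and Prkcz did not pass (edgeR adjusted p = 0.503 to 0.994). In share of these isoforms per length Prkcd went from 63.4%, 65.4% and 72.2% in the PBS libraries to 85.4% to 86.8% in WGP, and Prkcb from 15.1% ± 3.54 to 5.99% ± 0.286 (SD, n = 3). Neither share overlapped between groups (exact permutation p = 0.1, Benjamini-Hochberg 0.143).

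Plcg2, the phospholipase that makes the messengers for calcium release and for protein kinase C, lies on chromosome 8 (117498291 to 117635142). Its level was 331, 263 and 241 CPM in PBS and 486, 363 and 408 CPM in WGP. PBS 1 was nearest to the WGP libraries, but the groups did not overlap. Plcg2 rose by a log2 fold change of 0.59 ± 0.17 SE (edgeR adjusted p = 0.0469), close to the threshold, and 8 of 18 alternatives put it past 0.05, among them those without PBS 2, PBS 3, WGP 1 or WGP 3 (edgeR adjusted p = 0.114 to 0.182). Without PBS 1 the log2 fold change was 0.73 (edgeR adjusted p = 0.0107). With a term for Y-linked counts, which compares WGP with PBS 1 alone, it was 0.34. Plcg1, the form of T cells and other tissues, had overlapping groups (log2 fold change -0.36, edgeR adjusted p = 0.387), and Plcg2 made up 95.1% to 98.0% of the pair per length in each library.

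Set against Syk in the same library, Prkcd over Syk was 0.520, 0.606 and 0.681 in PBS and 1.15 to 1.20 in WGP, a 1.96-fold change. Plcg2 over Syk changed 1.37-fold and Prkcd over Plcg2 1.43-fold. The log2 change of Prkcd over Plcg2 was 0.52 with all libraries and 0.34 without PBS 1. None of these ratios overlapped between the groups (exact permutation p = 0.1 each, Benjamini-Hochberg 0.129). Per length, Lyn, Prkcd and Syk headed the 9 members in PBS, at 106 ± 1.58, 89.7 ± 7.08 and 88.6 ± 6.20 CPM per kb (SD, n = 3). Prkcd and Syk did not differ beyond their spread there. The length used joins all annotated exons of a gene, and the order depends on it. By CPM alone Syk was the highest member in every PBS library. In WGP Prkcd came first, at 195 ± 27.4 CPM per kb, followed by Fgr and Lyn. Syk and Plcg2 stood at 98.6 ± 16.0 and 97.5 ± 14.4 CPM per kb and were not apart.

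**Figure D3:**
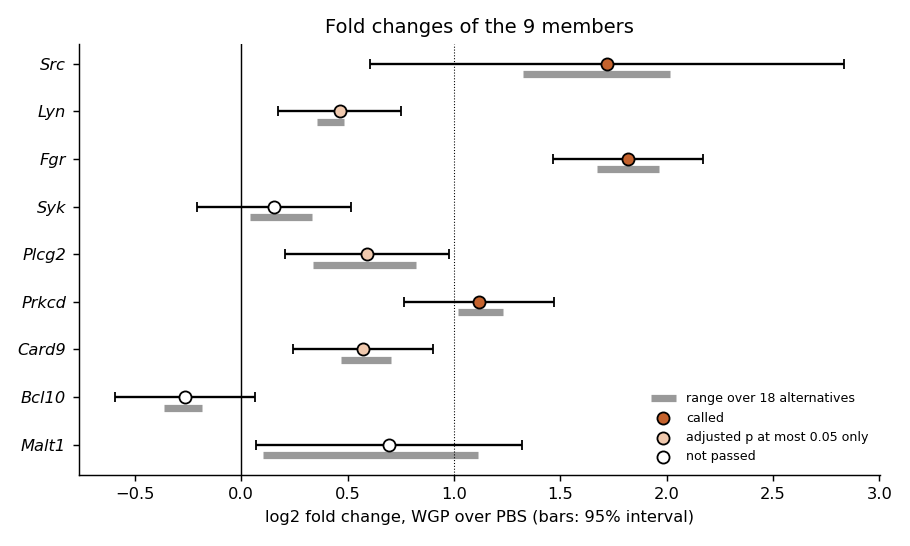
Log2 fold change (WGP over PBS, horizontal axis) of each member with its 95% interval in edgeR, and below it, in grey, the range over 18 alternatives. Fill shows whether a gene was called, passed the adjusted p alone or did not pass, and the dotted line is the fold threshold of 1. Fgr and Prkcd stay above 1 in every alternative, and Malt1 has the longest grey range.

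At the end of the branch the adaptor Card9 rose, Bcl10 did not change past the test, and Malt1 depended on the libraries and the fit used. Card9 lies on chromosome 2 (26352176 to 26360918). It was at 86.0, 79.6 and 77.5 CPM in PBS and at 126, 105 and 131 CPM in WGP. The groups did not overlap, and the log2 fold change was 0.57 ± 0.15 SE (95% interval 0.24 to 0.90, edgeR adjusted p = 0.0272), under the threshold for a call. Of 18 alternatives 6 put its adjusted p past 0.05, up to 0.168, among them those without PBS 2, PBS 3, WGP 1 or WGP 3 (edgeR adjusted p = 0.0758 to 0.120). Card9 shared 87 exon bases (3.79%) with Gm13562 on the opposite strand.

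Bcl10, which forms the filaments that CARD9 seeds, lies on chromosome 3 (145922804 to 145934356). It was at 96.8, 112 and 97.8 CPM in PBS and at 93.9, 84.2 and 77.6 CPM in WGP. The groups did not overlap, with WGP the lower, but they came close (log2 fold change -0.26 ± 0.15 SE, 95% interval -0.59 to 0.07, edgeR adjusted p = 0.307). It was the only member with a negative value, and it passed in none of the 18 alternatives.

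Malt1, the paracaspase of the complex, lies on chromosome 18. It was at 304, 179 and 122 CPM in PBS and at 342, 356 and 280 CPM in WGP. PBS 1 lay within the range of WGP, while PBS 2 and 3 lay below it. With all libraries the log2 fold change was 0.69 ± 0.28 SE (95% interval 0.07 to 1.32, edgeR adjusted p = 0.146). Without PBS 1 it was 1.11 (edgeR adjusted p = 0.00344), and with WGP 2 left out as well it was 1.04 (edgeR adjusted p = 0.00232), past both thresholds. Without PBS 3 it was 0.44 (edgeR adjusted p = 0.310), and with the replicate block it was 0.79 (edgeR adjusted p = 0.0451). With a term for Y-linked counts, which compares WGP with PBS 1 alone, it was 0.10 (edgeR adjusted p = 0.860). PBS 1 had the highest summed B cell, neutrophil and NK cell markers and the lowest myeloid lineage markers of the PBS libraries, and it lacked Y-linked transcripts. The parts of these in its value were not tested.

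**Figure D4:**
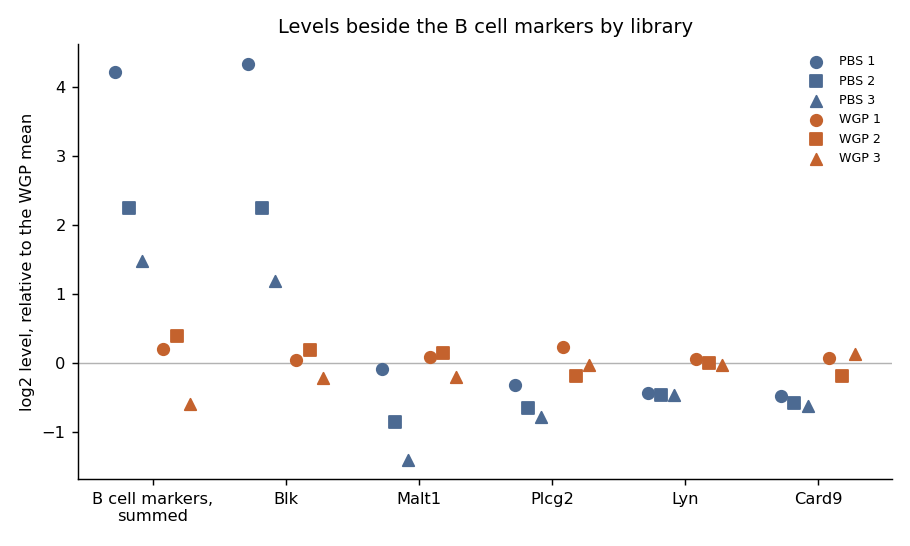
Log2 level of the summed B cell markers and of 5 genes in each library, each relative to its own WGP mean. PBS 1 (blue circles) is the highest PBS library for the markers and Blk, and also for Malt1 and Plcg2, while Lyn and Card9 differ little among the PBS libraries.

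Ratios within the complex were also computed in each library. Card9 over Bcl10 was 0.889, 0.708 and 0.792 in PBS and 1.34, 1.24 and 1.69 in WGP, a 1.78-fold change. Malt1 over Bcl10 was 3.14, 1.59 and 1.25 in PBS and 3.64, 4.23 and 3.61 in WGP, a 2.07-fold change in which PBS 1 came near to WGP. Neither ratio overlapped between the groups (exact permutation p = 0.1, Benjamini-Hochberg 0.129). Card9 over Malt1 did overlap, at 0.283 to 0.633 in PBS and 0.293 to 0.468 in WGP (exact permutation p = 0.7).

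Of the relatives of CARD9 with a coiled coil, Card10 and Card14 are given here, and neither rose. Card10 was at 13.6 to 21.2 CPM in PBS and 7.55 to 10.8 CPM in WGP (edgeR adjusted p = 0.129), and Card14 did not exceed 0.513 CPM. Per length Card9 held 89.8%, 92.4% and 91.1% of the sum of these 3 genes in PBS and 96.2%, 96.8% and 96.3% in WGP (exact permutation p = 0.1, Benjamini-Hochberg 0.143).

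Other genes around the branch were taken from lists that hold 113 further tested genes. Of these 24 rose, 14 fell and 75 did not pass, with a median log2 fold change of 0.16. Over all genes tested 7.54% rose and 6.81% fell at the adjusted p, the shares to set beside each list count below. Of 8 listed receptors and adaptors 7 were tested, and Dectin-1 was not analysed here. Of the 7, 5 rose and none fell, and 3 C-type lectin receptors were called. Their median log2 fold change was 1.28, and from 1.01 (without WGP 3) to 2.50 (without PBS 3) with 1 library left out, when 3 to 5 rose. Clec4e (Mincle), a receptor of fungal and mycobacterial glycolipids, went from 48.7 to 70.0 CPM in PBS to 794 to 1216 CPM in WGP (log2 fold change 4.15 ± 0.23 SE, edgeR adjusted p = 5.24e-06). Clec4n (Dectin-2), which binds mannans, and its partner Clec4d were called with log2 fold changes of 2.50 and 2.41 (edgeR adjusted p = 1.33e-05 each). The signaling adaptors Fcer1g (FcRγ) and Tyrobp (DAP12) rose by 0.59 and 0.53 on the log2 scale (edgeR adjusted p = 0.0250 and 0.0435), of which Tyrobp lost the test in 9 of 18 alternatives and Fcer1g in 3. Clec9a, a receptor of dendritic cells, had a log2 fold change of 1.28 ± 0.40 SE (edgeR adjusted p = 0.0632). The summed dendritic cell markers, Clec9a among them, were lower in WGP, with Cd209a alone past the test. Clec1b did not exceed 2.00 CPM.

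Among 15 scaffolds and adaptors that bind at Syk 6 rose and 1 fell. Lcp2 (SLP-76), which holds Vav and phospholipase C gamma, went from 187 to 260 CPM in PBS to 494 to 587 CPM in WGP (log2 fold change 1.29 ± 0.16 SE, edgeR adjusted p = 0.000527). Sh3bp2 was called at 1.28 ± 0.16 SE (edgeR adjusted p = 0.000410), and Vav1, an exchange factor for Rac, rose by 0.69 (edgeR adjusted p = 0.00601). The adaptors Fyb (ADAP) and Skap2, which link receptors to integrins, rose by 0.78 and 0.66 (edgeR adjusted p = 0.0101 and 0.0149). Blnk (SLP-65), which does in B cells what Lcp2 does in T cells and which macrophages also express, was called lower. It was at 170, 144 and 104 CPM in PBS and 28.5 to 32.0 CPM in WGP (log2 fold change -2.21 ± 0.20 SE, edgeR adjusted p = 5.91e-05), and all PBS libraries were above all WGP libraries. B cell and resident macrophage markers fell with it, and their part was not tested.

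Of 15 brakes and modifiers of Src kinases and Syk 4 rose and none fell, but 2 rose without PBS 2 or without WGP 3, and 1 fell without PBS 1. The phosphatases Ptprc (CD45), the sort marker, and Ptpn6 (SHP-1) rose by 0.71 and 0.74 on the log2 scale (edgeR adjusted p = 0.00725 and 0.00777), and the ubiquitin ligase Cbl rose by 0.58 (edgeR adjusted p = 0.0178), a test lost in 3 of 18 alternatives. The fourth, Ubash3b (Sts-1), a phosphatase that acts on Syk and its relatives, rose by 0.72 (edgeR adjusted p = 0.0321), a test lost in 7 of 18. Csk, which places the inhibitory phosphate on Src kinases, was at 304 to 349 CPM in PBS and 262 to 343 CPM in WGP (edgeR adjusted p = 0.775). Of 7 modifiers of Card9 2 rose (Otub1 and Vav1) and 1 fell, while Vav2 did not pass (edgeR adjusted p = 0.189). Otub1, a deubiquitinase that stabilizes CARD9, rose by 0.64 (edgeR adjusted p = 0.0241) and lost the test in 5 of 18 alternatives. Rubcn (Rubicon), which displaces CARD9 from its partners, was called lower with little spread, at 114 to 119 CPM in PBS and 54.9 to 57.4 CPM in WGP (log2 fold change -1.05 ± 0.14 SE, edgeR adjusted p = 0.000550).

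**Figure D5:**
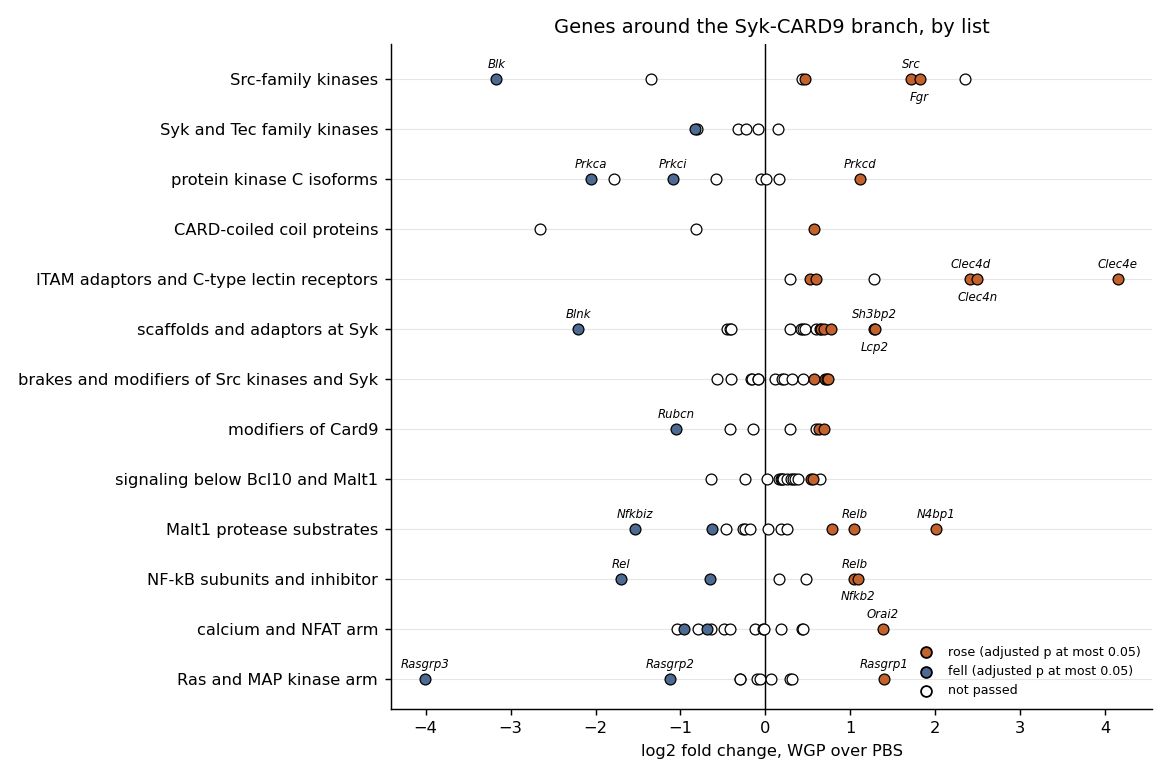
Log2 fold change (WGP over PBS) of the reported genes of 13 lists around the branch, one row per list. Orange marks genes that rose and blue genes that fell at an adjusted p of at most 0.05, white marks the rest, and names are given for called genes. The 3 called receptors lie to the right, and the genes below Bcl10 and Malt1 lie between -0.64 and 0.65.

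Of 15 genes directly below BCL10 and MALT1, among them Traf6, Map3k7 (TAK1) and the kinases Ikbkb and Chuk, 2 rose and none fell at the adjusted p, which 7.54% of all genes passed as higher and 6.81% as lower. The groups did not overlap for 7 of the 15, against 32.0% of all genes, and the median log2 fold change was 0.25. The risers were Sharpin and Rnf31 (HOIP), parts of the ligase that makes linear ubiquitin, at 0.56 and 0.53 (edgeR adjusted p = 0.0263 and 0.0319), and each lost the test in 8 of 18 alternatives. Traf2 was at 23.9 to 29.3 CPM in PBS and 35.1 to 48.5 CPM in WGP (edgeR adjusted p = 0.0616).

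Of 12 genes whose proteins MALT1 cleaves 3 rose and 2 fell. N4bp1, a ribonuclease that limits cytokine production, went from 82.3 to 138 CPM in PBS to 439 to 480 CPM in WGP (log2 fold change 2.02 ± 0.19 SE, edgeR adjusted p = 0.000100). Relb was called higher and Rc3h2 rose (log2 fold change 1.05 and 0.79, edgeR adjusted p = 0.00430 and 0.00930). Nfkbiz, an inducible partner of NF-κB, was called lower at 956 to 1250 CPM in PBS and 300 to 504 CPM in WGP (log2 fold change -1.54 ± 0.21 SE, edgeR adjusted p = 0.000755). Tnfaip3 (A20), a feedback inhibitor, fell by 0.63 on the log2 scale (edgeR adjusted p = 0.0424) and lost the test in 5 of 18 alternatives. Zc3h12a (Regnase-1), which degrades cytokine messages, was at 174 to 199 CPM in PBS and 105 to 165 CPM in WGP (edgeR adjusted p = 0.124).

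Of the 6 genes of NF-κB subunits and inhibitor 2 rose and 2 fell. Nfkb2 and Relb, the pair of the noncanonical route, were called higher (log2 fold change 1.10 and 1.05, edgeR adjusted p = 0.000671 and 0.00430). Both were below the fold threshold with library totals alone, and Relb also without PBS 3 and with a term for Y-linked counts (WGP against PBS 1 alone, log2 fold change 0.70, edgeR adjusted p = 0.0535). Rel (c-Rel), which myeloid cells and lymphocytes use downstream of this branch, was called lower, at 721, 592 and 510 CPM in PBS and 236, 145 and 182 CPM in WGP (log2 fold change -1.70 ± 0.21 SE, edgeR adjusted p = 0.000405). The inhibitor Nfkbia fell by 0.66 (edgeR adjusted p = 0.0146), a test lost in 2 of 18 alternatives. Nfkb1 and Rela, the canonical pair, were at 234 to 346 and 204 to 212 CPM in PBS and at 375 to 436 and 206 to 247 CPM in WGP (edgeR adjusted p = 0.0925 and 0.511). Nfkb1 passed as higher in DESeq2, without PBS 1, and with PBS 1 and WGP 2 both left out.

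At the adjusted p 7.54% of all genes tested rose and 6.81% fell. On the side arms of Plcg2, 1 of 14 genes of calcium and NFAT signaling rose and 2 fell. Over the 18 alternatives 1 or 2 rose and between 1 and 6 fell, with 6 in DESeq2. Itpr2, a calcium channel of the endoplasmic reticulum, lay at the threshold (log2 fold change -0.64, edgeR adjusted p = 0.0521) and passed in 11 of 18. Orai2, a subunit of the calcium channel, was called higher, at 26.1 to 53.2 CPM in PBS and 97.9 to 102 CPM in WGP (log2 fold change 1.38 ± 0.24 SE, edgeR adjusted p = 0.00320). The catalytic subunit of calcineurin Ppp3ca and the factor Nfatc2 fell by 0.68 and 0.96 (edgeR adjusted p = 0.0120 and 0.0204), of which Nfatc2 lost the test in 5 of 18 alternatives. Rcan1, a calcineurin target gene, was at 32.0 to 37.4 CPM in PBS and 14.8 to 24.4 CPM in WGP, just outside the threshold. Of 10 genes of the Ras and MAP kinase arm 1 rose and 2 fell, the 3 being exchange factors of the Rasgrp family. Rasgrp3 went from 111 to 132 CPM in PBS to 5.94 to 8.49 CPM in WGP (log2 fold change -4.00 ± 0.21 SE, edgeR adjusted p = 4.86e-06) and Rasgrp2 was called lower (-1.12 ± 0.26 SE, edgeR adjusted p = 0.0164). Its change was smaller than the fold threshold without PBS 1, without WGP 2 and without both (-0.63 at the smallest). Rasgrp1 was called higher at 1.40 ± 0.41 SE (edgeR adjusted p = 0.0481), a call lost in 11 of 18 alternatives. Map2k1, Map2k2 and Rasgrp4 did not pass (edgeR adjusted p = 0.155 to 0.387).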

How the data were processed

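RNA of sorted CD45+CD11b+ pancreatic cells was made into polyA libraries from 10 ng and sequenced in reads of 75 bases. The authors deposited raw counts per Ensembl gene, from STAR 2.6 and HTSeq 0.10.0 per the labels, aligned to mm10 (GRCm38.p6). The annotation release, strand setting and handling of duplicate reads are not given in the sources used here. Gene names and exon lengths came from GENCODE vM21. The 14429 protein-coding genes whose RLE-normalized counts summed to 10 or more were fitted in R 4.3.3 with edgeR 4.0.16 (TMM, quasi-likelihood, no covariate), with calls as defined in the text. Standard errors were derived from the F statistic, and the steps were tested on simulated data.

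Shares and ratios were compared by exact two-sided permutation of 3 libraries against 3. Alternatives were RLE, upper-quartile and total scaling, DESeq2 1.42.0, limma-voom (limma 3.58.1), 3 filters, other fold thresholds, the replicate block, a covariate for Y-linked counts and each library left out. Counts over the most frequent low count, and PBS 1 and WGP 2 left out together, were added after the data were seen.

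Members and lists were chosen with earlier results of these data known. Named were all members, their kinase, phospholipase and CARD families, and of other lists the called genes and the 3 with the smallest p. A few genes were named outside this rule after their values were seen: Csk, Traf6, Map3k7, Ikbkb, Chuk, Clec1b, Itpr2 and Ubash3b. Of the lists 3 genes were not analysed here, and 6 more are not reported and were left out of the counts, medians and shares of the lists, though not out of the fit. The p-values measure the spread between these libraries, and the counts carry no molecular identifiers.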

Additional observations from a re-analysis of the deposited data

How the results depend on the processing

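In edgeR and the other tools Prkcd and Fgr were called under all 18 alternatives fitted, and the signs of all 9 members held in each of them. The number of members past the adjusted p, 6 with edgeR and TMM scaling, was 3 with upper-quartile factors, 2 with library totals alone (which moved the median of all genes by -0.10 on the log2 scale) and 2 with a term for Y-linked counts, in which the fold change is WGP over PBS 1 alone. It ranged from 2 (without PBS 2, WGP 1 or WGP 3) to 7 (without PBS 1) when each library was left out in turn. Card9 was outside the adjusted p in 6 of 18 alternatives, Plcg2 in 8, Lyn in 9 and Src in 10, and Malt1 was inside in 3. With 1 library left out, 1 to 3 Src-family kinases, 4 to 7 of the scaffolds at Syk, 1 or 2 of the modifiers of Card9 and 0 to 2 of the genes below Bcl10 and Malt1 rose. At the adjusted p alone 6 members and 2071 genes passed, and at an absolute log2 fold change of 2 or more 0 members and 568 genes. Without division by gene length the difference in share was 3.79 percentage points for Plcg2 (2.20 with it) and 9.98 for Card9 (5.33 with it). The log2 ratios Card9 over Malt1 and Fgr over Src changed sign when a library was left out, with the cause not tested: Card9 over Malt1 (-0.22 with all libraries) ranged from -0.52 without PBS 1 to 0.059 without PBS 3, and Fgr over Src (-0.07) from -0.51 without PBS 3 to 0.56 without PBS 2, with 0.24 without WGP 2. Libraries of the same replicate number did not deviate together over all genes (correlations 0.0027, -0.0446 and 0.0105). Such correlations cannot show whether a pairing touched only some genes. With the replicate block 1341 genes and 2 members were called and 5 members passed the adjusted p, Malt1 among them (0.0451), and Lyn and Src were outside it.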

Other observations

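For each member the genes with the nearest profile over the 6 libraries were sought among 8559 other tested genes with a mean of at least 10 CPM, by the root mean square difference of log2 CPM after subtraction of the PBS mean. Prkcd was nearest to Ccdc102a (0.068) and Ncf1 (0.093), the latter the p47-phox subunit of the phagocyte NADPH oxidase. Fgr was nearest to H2-T22 (0.122), a class I-like gene, and Clec5a (0.128), a receptor that signals through DAP12. Malt1 was nearest to Chst11 (0.110) and Mphosph10 (0.131), and Src to Leng9 (0.351) and Nr1h3 (0.369). The distances of Src were the largest of the 9 members, and those of Syk to Xpo4 (0.033) and of Bcl10 to Zranb2 (0.033) were the smallest.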
